A study of Mus musculus with 4 samples.

Results

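Inflammasomes are protein complexes that sense danger inside a cell, and pyroptosis is the lytic form of cell death that they set off. The genes described here are 9 mouse genes of this pathway, chosen by name for their role: the sensors Nlrp3, Nlrc4, Aim2, Naip2 and Naip5, the adaptor Pycard, the caspases Casp1 and Casp4, and the pore former Gsdmd. All 9 were present among the 54532 genes with an Ensembl identifier in the count tables, and all 9 passed the filter on low counts, which left 13811 protein-coding genes for testing. Microglia, the resident macrophages of the brain, were cultured from the cortex of male CD1 mouse pups aged 1 to 3 days and treated for 24 h with 1 µM epigallocatechin gallate (EGCG), the main flavanol of green tea, or with its dimethyl sulfoxide (DMSO) vehicle. The purpose of the comparison was to see how EGCG alters the microglial transcriptome. Poly-A RNA of 4 cultures was sequenced, replicates 1 and 2 of each treatment, which the series describes as independent. Both groups shared the same preparation. Mixed glia were expanded with GM-CSF, the astrocyte layer was removed by trypsinisation, and the remaining cells were kept in serum-free medium with IL-34, TGFβ2, GM-CSF and cholesterol, with no inflammasome stimulus described. Total counts were 33805071 for Vehicle replicate 1, 34300679 for EGCG replicate 1, 36307930 for Vehicle replicate 2 and 54970300 for EGCG replicate 2.

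In the canonical pathway, a sensor such as NLRP3, AIM2 or NLRC4 oligomerises on its trigger and recruits pro-caspase-1, mostly through the adaptor ASC, the product of Pycard. Active caspase-1 cleaves pro-IL-1β and pro-IL-18 and frees the pore-forming end of gasdermin D, whereas caspase-11, the product of mouse Casp4, binds cytosolic lipopolysaccharide itself and also cleaves gasdermin D. In microglia the pathway is known for the release of IL-1β, and NLRP3 needs a priming signal that raises its transcript before it can assemble.

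The libraries were first compared by markers of the cells such cultures can hold, in CPM (counts relative to library size on the usual scale, after TMM normalisation) summed over each list. All 8 microglia markers had at least 10 counts in every library and summed to 4296 CPM with vehicle and 4658 CPM with EGCG in replicate 1, against 5027 with vehicle and 5236 with EGCG in replicate 2, with Csf1r the most abundant. These sums hide opposite gaps between replicates, since 4 of the 8, Csf1r and Cx3cr1 among them, were higher in both libraries of replicate 2 and another 4, Itgam and Tmem119 among them, in both of replicate 1. With vehicle, Csf1r was at 1195 CPM in replicate 1 and 2373 in replicate 2, and Cx3cr1 at 267 and 605. In the same libraries the CPM of Itgam was 404 and 169, and that of Tmem119 was 35.1 and 11.2. The 6 stromal markers, of which Col3a1 had the highest mean over the 4 libraries, summed to 421 CPM in Vehicle replicate 1 and 4.87 in EGCG replicate 1. They summed to 157 in Vehicle replicate 2 and 174 in EGCG replicate 2. EGCG replicate 1 therefore stood apart, with Lum at 0 counts and at most 6 counts for each of Col1a1, Col1a2, Col3a1 and Dcn. Its sum was nearly all Pdgfra, which at 4.40 CPM was higher there than in the other 3 libraries. The 5 astrocyte markers summed to between 13.6 and 18.4 CPM, most of it Aldh1l1, with 339 counts for vehicle and 383 for EGCG in replicate 1. In these libraries Gja1 had 160 counts and 1, Aqp4 had 20 and 0, and Gfap had 12 and 2, so that 3 of the 5 were nearly absent from EGCG replicate 1, as the collagen genes were. Oligodendrocyte markers (5 genes) summed to between 77.3 and 80.3 CPM, nearly all of it Mbp, while Mog had at most 1 count. The 4 neuronal markers summed to 17.5 CPM with vehicle and 16.7 CPM with EGCG in replicate 1, against 0.791 with vehicle and 1.14 with EGCG in replicate 2, and Snap25 was the most abundant. The 4 endothelial markers summed to between 5.74 and 19.7 CPM, mostly Kdr in replicate 1 and Pecam1 in replicate 2, with Cldn5 at 0 in every library. The 5 neutrophil markers summed to between 2.86 and 12.9 CPM, nearly all of it S100a8, and S100a9 and Ly6g were at 0. The 3 markers of border macrophages summed to between 214 and 354 CPM, nearly all of it Mrc1, and Cd163 had at most 4 counts. The part of these other cells, or of the gaps in microglia markers, in the values of the inflammasome genes was not tested. Fits without a library cannot decide it, because each leaves a group with a single replicate number. Without Vehicle replicate 2, the fitted log2 fold change of EGCG against vehicle took the other sign for 5 of the 9 genes. Pycard was then at -0.22 and Casp4 at 0.44. Without EGCG replicate 2, the sign changed for 1 of the 9, Nlrp3 at -0.40. The fitted log2 fold change of EGCG against vehicle took the other sign for 3 of the 9 genes without Vehicle replicate 1 (Nlrp3 at -0.23) and for 5 without EGCG replicate 1 (Pycard at -0.38 and Casp4 at 0.35), and in either fit 0 of the 9 had an unadjusted p under 0.05 in edgeR, against 0.119% and 0.059% of all genes.

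All 9 inflammasome and pyroptosis genes were expressed in these microglia, for which no inflammasome stimulus was described, with between 610 and 8026 counts in a library. None differed between EGCG and vehicle beyond the spread between replicates. Fitted log2 fold changes of EGCG against vehicle lay between -0.08 for Naip2 and 0.09 for Nlrc4. Nlrp3, Casp4 and, by a narrow margin, Naip5 were higher in both libraries of replicate 2, 3 of the 9 genes against 39.2% of all genes tested. Pycard, Nlrc4 and Aim2 were higher in both libraries of replicate 1, 3 of the 9 against 37.4%, so that such a gap was common among all genes. In bulk RNA, fewer cells expressing a gene and less RNA per cell cannot be told apart.

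EGCG was compared with vehicle by the two-sided quasi-likelihood F test of edgeR, fitted with treatment alone. An unadjusted p under 0.05 was reached by 0 of the 9 genes, against 0.116% of all genes tested (16 of 13811, 4 higher and 12 lower with EGCG). With the replicate number added to the edgeR fit as a block, it was reached by 0 of the 9 against 3.21% of all genes (293 higher and 151 lower). Further values here are from fits with treatment alone, unless the block is named. DESeq2 gave 24 genes at that threshold. After Benjamini-Hochberg adjustment over all genes tested, an adjusted p under 0.1 was reached by 0 of the 9 genes in edgeR, against 0% of all genes, and DESeq2 gave 1 gene, which was not among the 9. Unadjusted p-values of the 9 genes in edgeR ran from 0.602 for Casp1 to 0.972 for Casp4, and their median log2 fold change was 0.05, against 0.01 over all genes tested. The libraries of EGCG and vehicle did not overlap for 0 of the 9 genes, against 11.9% of all genes. A p above the threshold does not show that a level was unaltered. The 95% intervals of the log2 fold changes, the widest from -1.24 to 1.21 for Casp4, give the sizes that this fit leaves possible. They count the gap between replicates as spread, and with the replicate block the interval of Casp4 was narrower, from -0.17 to 0.13. Counting error, taken as the inverse square root of the count, was between 1.12% and 4.05% per value. It covers the counting of reads only and not the variation between cultures, so it does not judge the gap between replicates.

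**Figure D1:**
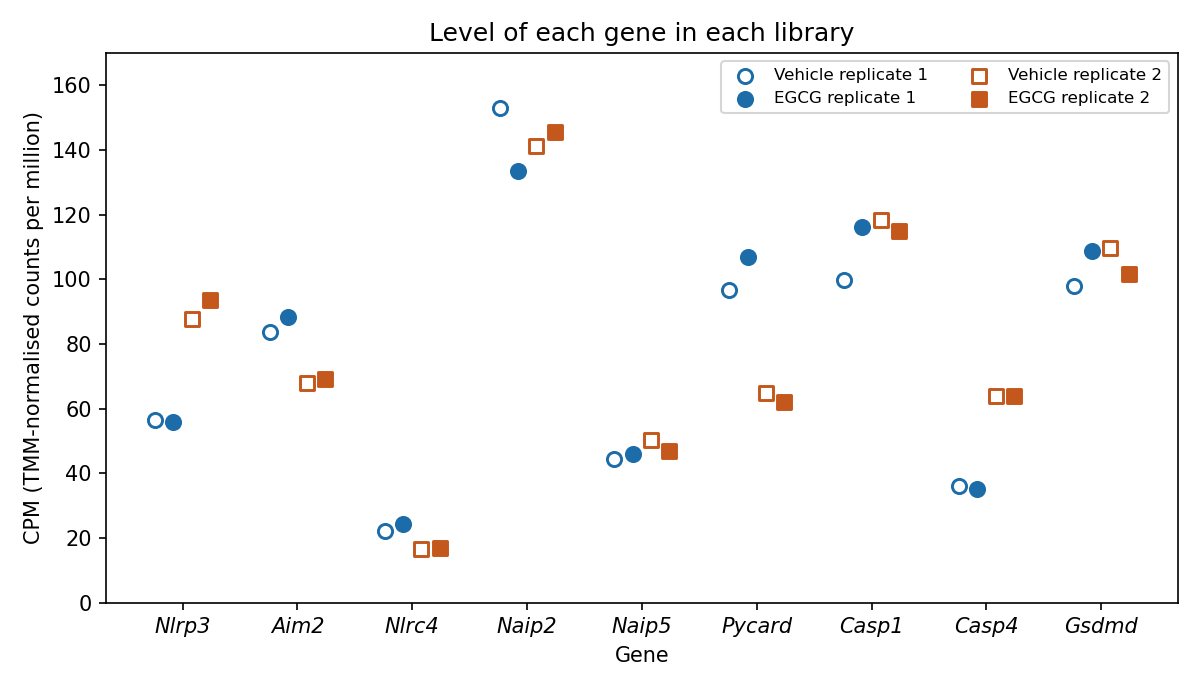
Level of the 9 genes in each of the 4 libraries, in TMM-normalised CPM (vertical axis), with open symbols for vehicle, filled symbols for EGCG, circles for replicate 1 and squares for replicate 2. Symbols of the same shape lie together for Nlrp3, Aim2, Nlrc4, Pycard and Casp4, and open and filled symbols overlap for all 9 genes.

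Nlrp3 (chromosome 11, 59541568 to 59566956, plus strand, GRCm38), the sensor of potassium efflux, crystals and other signs of cell stress, was measured at 56.4 CPM with vehicle and 55.8 CPM with EGCG in replicate 1, against 87.8 with vehicle and 93.7 with EGCG in replicate 2. Both libraries of replicate 2 were above both of replicate 1, and within each replicate EGCG and vehicle were close. The group means were 72.1 ± 22.1 CPM for vehicle and 74.7 ± 26.8 for EGCG (SD, n = 2 libraries each). The log2 fold change was 0.05 with a standard error of 0.37 and a 95% interval from -0.97 to 1.08, and the difference of EGCG minus vehicle in log2 CPM was -0.02 in replicate 1 and 0.09 in replicate 2.

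Aim2 (chromosome 1, 173350879 to 173466040, plus strand), which binds double-stranded DNA in the cytosol, was at 83.7 CPM with vehicle and 88.4 CPM with EGCG in replicate 1, against 68.0 with vehicle and 69.0 with EGCG in replicate 2. Its order was the opposite of that of Nlrp3, with replicate 1 above replicate 2, and EGCG lay slightly above vehicle in each replicate. EGCG against vehicle gave a log2 fold change of 0.05 ± 0.20 (SE), with differences of 0.08 in replicate 1 and 0.02 in replicate 2.

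Nlrc4 (chromosome 17, 74425438 to 74459142, minus strand), which forms the inflammasome for bacterial flagellin and secretion systems together with the NAIP proteins, was at 22.1 CPM with vehicle and 24.2 CPM with EGCG in replicate 1, against 16.6 with vehicle and 17.0 with EGCG in replicate 2. Replicate 1 was again the higher. For Nlrc4 the log2 fold change was 0.09 ± 0.27 (SE), with differences of 0.13 and 0.03 in replicates 1 and 2. Aim2 and Nlrc4 were the 2 genes of the 9 that were higher with EGCG in both replicates, against 29.9% of all genes tested, and 1 gene, Casp4, was lower in both, against 20.6%.

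Naip2 and Naip5 encode the receptors that bind bacterial ligands and seed NLRC4: NAIP2 the inner rod of secretion systems and NAIP5 flagellin. Naip2 (chromosome 13, 100144063 to 100202092, minus strand) was at 153 CPM with vehicle and 133 CPM with EGCG in replicate 1, against 141 with vehicle and 145 with EGCG in replicate 2. The highest and the lowest value were both from replicate 1, and the treatments overlapped as well. Its log2 fold change was -0.08 ± 0.14 (SE), with a difference of -0.20 in replicate 1 and 0.04 in replicate 2. Naip5 (chromosome 13, 100211739 to 100246323, minus strand) was at 44.4 CPM with vehicle and 45.9 CPM with EGCG in replicate 1, against 50.1 with vehicle and 46.8 with EGCG in replicate 2. These were the narrowest values of the 5 sensors, the highest being 1.13 times the lowest. Between treatments the log2 fold change was -0.03 ± 0.13 (SE), and the differences were 0.05 and -0.10 in replicates 1 and 2.

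Pycard (chromosome 7, 127989708 to 127993867, minus strand) encodes ASC, the adaptor that links sensors to caspase-1 and assembles into a single large speck per cell. It was at 96.8 CPM with vehicle and 107 CPM with EGCG in replicate 1, against 64.8 with vehicle and 62.1 with EGCG in replicate 2. Both libraries of replicate 1 lay at least 1.49-fold above both of replicate 2, and EGCG and vehicle overlapped. Group means were 80.8 ± 22.6 CPM for vehicle and 84.5 ± 31.7 for EGCG (SD, n = 2 libraries each). The log2 fold change was 0.06 ± 0.36 (SE), with a 95% interval from -0.95 to 1.08, and the differences within replicates had opposite signs, 0.14 in replicate 1 and -0.06 in replicate 2.

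Casp1 (chromosome 9, 5298517 to 5307265, plus strand) encodes caspase-1, the protease of canonical inflammasomes. It was at 99.9 CPM with vehicle and 116 CPM with EGCG in replicate 1, against 118 with vehicle and 115 with EGCG in replicate 2. The vehicle library of replicate 1 was the lowest and the other 3 were close to each other, so the EGCG libraries lay within the range of the vehicle libraries. EGCG against vehicle gave a log2 fold change of 0.08 ± 0.15 (SE), with a 95% interval from -0.33 to 0.49 and differences of 0.22 in replicate 1 and -0.04 in replicate 2.

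Casp4 (chromosome 9, 5308828 to 5336783, plus strand) encodes caspase-11, the protease of the noncanonical pathway. It was at 36.1 CPM with vehicle and 35.2 CPM with EGCG in replicate 1, against 64.0 with vehicle and 63.7 with EGCG in replicate 2. Replicate 2 was at least 1.77-fold above replicate 1, the widest gap of the 9 genes, whereas EGCG and vehicle of the same number were almost equal. Group means were 50.1 ± 19.8 CPM for vehicle and 49.5 ± 20.2 for EGCG (SD, n = 2 libraries each). The log2 fold change was -0.02 ± 0.44 (SE), and the differences within replicates were -0.04 and -0.01. Casp1 and Casp4 are neighbours, 1562 bases apart on the same strand with 0 annotated genes between them, but for Casp1 the replicate numbers overlapped.

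Gsdmd (chromosome 15, 75862327 to 75867408, plus strand) encodes gasdermin D, whose released end forms the membrane pore through which IL-1β leaves and by which the cell lyses. It was at 98.0 CPM with vehicle and 109 CPM with EGCG in replicate 1, against 109.7 with vehicle and 102 with EGCG in replicate 2. The values overlapped between treatments and between replicate numbers, and the highest was 1.12 times the lowest, the smallest such ratio of the 9 genes. The log2 fold change was 0.02 ± 0.13 (SE), with a 95% interval from -0.36 to 0.39. EGCG minus vehicle was 0.15 in replicate 1 and -0.11 in replicate 2, and with scaling to total counts alone the fitted value changed sign to -0.02. In all, 6 of the 9 genes had differences of opposite sign in replicates 1 and 2.

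**Figure D2:**
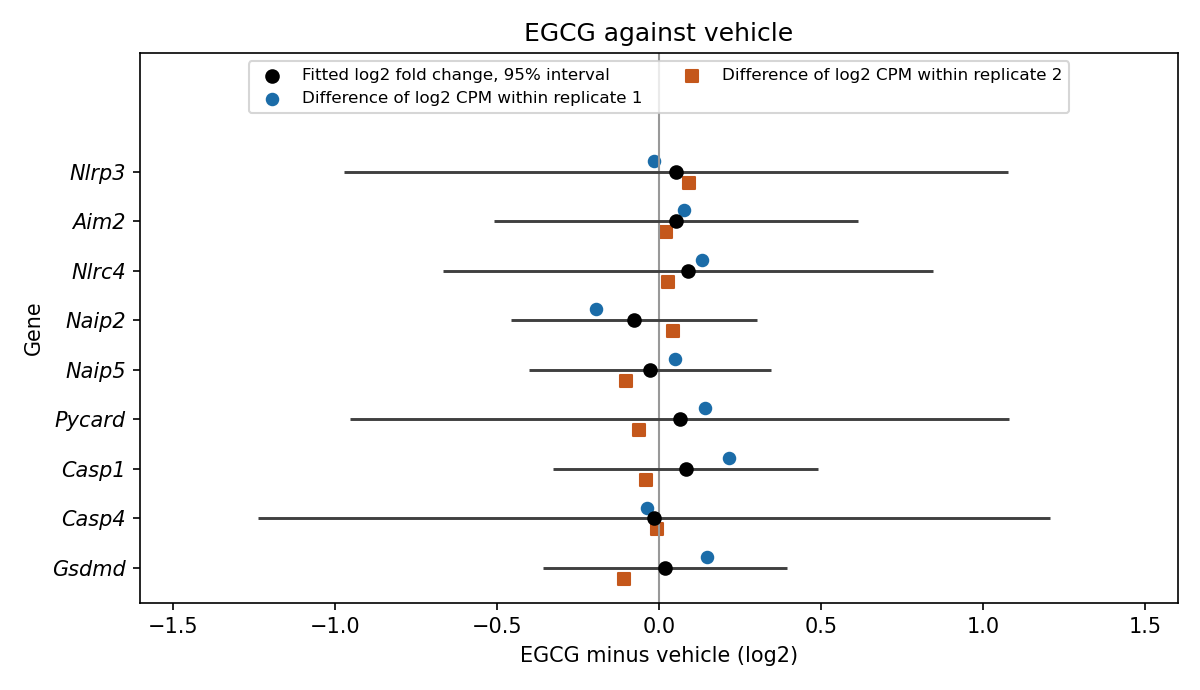
Difference of EGCG minus vehicle on the log2 scale (horizontal axis) for the 9 genes, with black points for the fitted log2 fold change, bars for its 95% interval, circles for the difference of log2 CPM within replicate 1 and squares for that within replicate 2. Intervals are from the fit with treatment alone. Every interval includes 0, and the widest, from -1.24 to 1.21, is that of Casp4.

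Levels were compared between genes per kilobase of gene length (RPKM, CPM divided by the length in kilobases given in the count tables), as the mean over the 4 libraries. Casp1 was the highest at 75.0 ± 5.61 RPKM (SD, n = 4 libraries), followed by Gsdmd at 44.0 ± 2.35 and Naip2 at 29.6 ± 1.67. Aim2 at 22.1 ± 2.94, Pycard at 21.7 ± 5.94, Nlrp3 at 18.1 ± 4.96 and Casp4 at 13.4 ± 4.40 RPKM formed the middle. Naip5 at 8.99 ± 0.468 and Nlrc4 at 4.22 ± 0.795 RPKM were the lowest. Casp1 and the pore former Gsdmd thus stood above the sensors, whereas the mean of the other caspase gene, Casp4, lay below those of Naip2, Aim2 and Nlrp3. Of the 8 neighbouring pairs in this order, 4 overlapped in their library values: Aim2 and Pycard, Pycard and Nlrp3, Nlrp3 and Casp4, and Casp4 and Naip5. Casp1 and Gsdmd ranked 1 and 2 and Naip5 and Nlrc4 ranked 8 and 9 in every library. The middle ranks differed by replicate number, Pycard being 4 and 3 in the libraries of replicate 1 but 7 in both of replicate 2, and Nlrp3 being 6 in both of replicate 1 and 4 in both of replicate 2. The order also rests on the length used. With the length of the longest principal transcript in GENCODE, a choice made after seeing the data, Casp4 (1435 bases in place of 3710) moved from 13.4 to 34.7 and from rank 7 to rank 3, Gsdmd moved from 44.0 to 58.3 and Aim2 from 22.1 to 27.2 on the same scale. Against all genes tested, mean RPKM lay at percentile 95.9 for Casp1, 92.9 for Gsdmd and 49.7 for Nlrc4.

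The gap between replicate numbers was described for every gene, with no test, since each replicate of a treatment is 1 culture. Replicate 2 was at least 2-fold above replicate 1 in both libraries for 0 of the 9 genes, against 4.29% of all genes, and replicate 1 was so above replicate 2 for 0 of the 9, against 7.68%. At a gap of at least 1.5-fold, replicate 2 was above for Nlrp3 and Casp4, 2 of the 9 genes against 8.63% of all genes, and replicate 1 was above for 0 of the 9 against 13.2%. Between the vehicle libraries alone, replicate 2 minus replicate 1 in log2 CPM was 0.64 for Nlrp3 and 0.83 for Casp4, and -0.58 for Pycard, -0.41 for Nlrc4 and -0.30 for Aim2. Between the EGCG libraries the same differences were 0.75, 0.86, -0.78, -0.51 and -0.36. The median size of this difference over the 9 genes was 0.30 between vehicle libraries and 0.36 between EGCG libraries, against 0.38 and 0.35 over all genes tested. The median size of the difference between EGCG and vehicle was 0.13 within replicate 1 and 0.04 within replicate 2, against 0.12 and 0.10 over all genes.

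The other genes of the pathway were grouped into 6 lists with 37 genes, of which 32 were tested. None of the 32 had an unadjusted p under 0.05 in edgeR in either direction, against 0.116% of all genes tested, and the smallest was 0.121 for Gbp2. With so small a share over all genes, 0 calls says little about these lists. Their median log2 fold change was 0.07, against 0.01 over all genes tested and 0.05 over the 9 genes. Libraries of EGCG and vehicle did not overlap for 6 of the 32, against 11.9% of all genes, and of these 5 were higher with EGCG (Naip1, Txnip, Brcc3, Gbp2 and Tnfaip3) and 1 was lower (Casp12). Log2 CPM was higher with EGCG in both replicates for 17 of the 32, against 29.9% of all genes, and lower in both for 8, against 20.6%. Brcc3 and Casp12 are named after their values were seen, and Casp12, an inflammatory caspase gene beside Casp4, had at most 23 counts in a library.

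Among 9 other sensors, 6 were tested, and 0 had an unadjusted p under 0.05 in edgeR, against 0.116% of all genes tested. Naip6, a further flagellin receptor, was at 28.0 CPM with vehicle and 28.4 CPM with EGCG in replicate 1, against 35.1 with vehicle and 33.8 with EGCG in replicate 2. Nlrp1a, of the NLRP1 family, was at 4.91 and 5.43 CPM in Vehicle and EGCG of replicate 1 but at 16.0 and 15.6 in those of replicate 2. Naip1 and Nlrp1b had a mean of 0.248 and 0.923 RPKM and log2 fold changes of 0.25 and 0.10. Nlrp6, Nlrp9b and Nlrp12 had 0 counts in all 4 libraries, which allows up to 3 counts or between 0.0544 and 0.0936 CPM in a library, for counting error only.

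All 9 activation partners were tested, with 0 past the threshold, against 0.116% of all genes. Of the 9, 8 were higher with EGCG in both replicates and 1 lower in both, against 29.9% and 20.6% of all genes. Nek7, the kinase that NLRP3 needs to assemble, was at 137 CPM with vehicle and 164 CPM with EGCG in replicate 1, against 178 with vehicle and 187 with EGCG in replicate 2. P2rx7, the ATP-gated channel that opens the way to potassium efflux, was at 123 CPM in both libraries of replicate 1 and at 173 in Vehicle and 167 in EGCG of replicate 2. Both were among 3 of the 9 genes of this list that were higher in both libraries of replicate 2, while another 3 were higher in both of replicate 1. Txnip, which binds NLRP3, had the highest mean RPKM of this list at 134. Gbp5, a guanylate-binding protein that promotes inflammasome assembly, was at 7.44 CPM with vehicle and 11.1 CPM with EGCG in replicate 1, against 22.7 with vehicle and 32.1 with EGCG in replicate 2, with differences of 0.58 and 0.50 within replicates 1 and 2. Gbp2, of the same family, was at 48.0, 61.8, 55.0 and 62.1 CPM in the same order of libraries. The EGCG value was the higher in each replicate for both genes, but the log2 fold changes of 0.52 ± 0.79 for Gbp5 and 0.27 ± 0.13 for Gbp2 (SE) did not pass the threshold. These values are from the fit with treatment alone, which counts the gap between replicates as spread. Fits with the replicate block are given here for the 9 genes and as counts over all genes, not for the genes of these lists.

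The 4 other caspases and the 3 tested of 4 other genes of pores and membrane rupture also had 0 calls, against 0.116% of all genes. Casp8, which joins apoptosis to pyroptosis, had the highest mean RPKM of the caspases in this list at 32.9, with a log2 fold change of 0.02. Ninj1, which ruptures the membrane after the gasdermin pore has formed, was at 82.0 CPM with vehicle and 89.2 CPM with EGCG in replicate 1, against 111 with vehicle and 116 with EGCG in replicate 2. It was higher in replicate 2, unlike Gsdmd. Gsdme had a mean of 0.892 RPKM and Gsdma had at most 1 count in a library.

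The cytokines that inflammasomes process differed far more between replicates than any of the 9 genes. Il1b was at 76.8 CPM with vehicle and 56.3 CPM with EGCG in replicate 1, against 1164 with vehicle and 1159 with EGCG in replicate 2. Its mean in replicate 2 was 17.4 times that in replicate 1, whereas EGCG and vehicle of replicate 2 were almost equal. Il18 was at 4.24 and 4.15 CPM in Vehicle and EGCG of replicate 1 and at 12.4 and 12.8 in those of replicate 2. Il1rn, which encodes the antagonist of the IL-1 receptor, was at 718 CPM with vehicle and 744 CPM with EGCG in replicate 1, against 196 with vehicle and 283 with EGCG in replicate 2, the reverse order. All 8 genes of this list were tested and 0 passed the threshold, against 0.116% of all genes. Log2 fold changes were -0.03 for Il1b, 0.03 for Il18, 0.17 for Il1rn and 0.23 for Il18bp, which encodes a soluble inhibitor of IL-18. Of the 3 inhibitors, 2 were tested: Tnfaip3, a brake on NF-κB, was at 124 CPM in both vehicle libraries, 137 in EGCG replicate 1 and 154 in EGCG replicate 2 (log2 fold change 0.23 ± 0.13, SE), and Serpinb1a had at most 8 counts. Trim31 had 0 counts in every library. Over all 6 lists, replicate 2 was at least 2-fold above replicate 1 for 4 of 32 genes (Nlrp1a, Gbp5, Il1b and Il18), against 4.29% of all genes, and replicate 1 was so above replicate 2 for 6, against 7.68% (Nlrp10, Ripk3, Mlkl, Il1rn, Il1r1 and Serpinb1a), of which Nlrp10, Ripk3, Mlkl and Il1r1 are named after their values were seen.

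**Figure D3:**
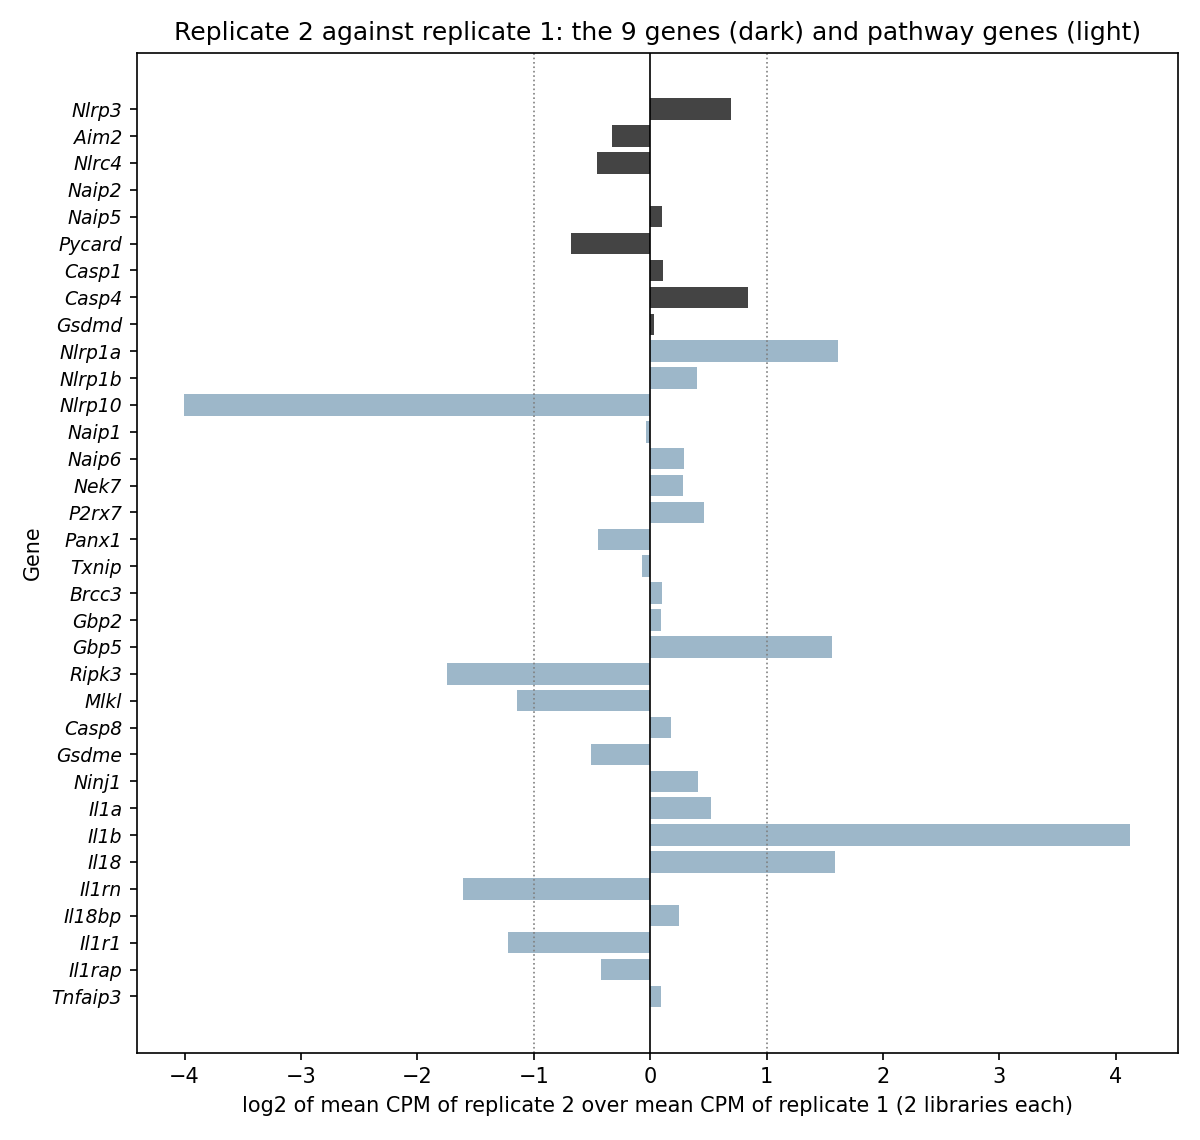
Log2 of the mean CPM of replicate 2 over that of replicate 1 (horizontal axis, 2 libraries in each mean) for the 9 genes (dark bars) and 25 of the 27 genes of the pathway lists with a mean of at least 1 CPM (light bars), with dotted lines at -1 and 1. Il1b, 17.4-fold higher in replicate 2, and Nlrp10, 16.1-fold higher in replicate 1, extend furthest, and none of the 9 genes reaches either line.

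For Nlrp3 and Casp1, the genes with the most similar pattern were sought by the Euclidean distance of mean-centred log2 CPM over the 4 libraries, among 8356 genes with a mean of at least 10 CPM. The 3 nearest to Nlrp3 were Birc2 at a distance of 0.02, Hspa8 at 0.03 and Pcif1 at 0.03, and Hspa8 was at 692 and 693 CPM in Vehicle and EGCG of replicate 1 and at 1099 and 1150 in those of replicate 2. Among those nearest to Casp1 were Rpl19 at 0.03 and Rit1 at 0.03. With 4 libraries, such likeness is a description.

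Some counts are uncertain because of shared or overlapping sequence, since the counting program and its handling of reads that match several genes were not given in the sources used here. Of the stretches of 150 bases, the length of a read, in the principal transcript of Naip5, 8.25% occur identically in transcripts of Naip1, Naip3 or Naip6, against 0.556% for Naip2 (shared with Naip1 and Naip3) and 0% for the other 7 genes. Naip2 and Naip5 lie 9646 bases apart on the same strand, and their longest identical coding stretch, 140 bases, is shorter than a read. The longest stretch shared by Naip5 and Naip6 is 229 bases of coding sequence within 1 exon, positions 2338 to 2566 of either coding sequence, at chr13:100222161-100222389 on the minus strand for Naip5 and chr13:100299448-100299676 on the minus strand for Naip6. It is shown, from GENCODE transcripts on GRCm38, because the bases of a read that lies inside it do not tell Naip5 from Naip6, which only a mate outside the stretch could do.
Naip5 and Naip6: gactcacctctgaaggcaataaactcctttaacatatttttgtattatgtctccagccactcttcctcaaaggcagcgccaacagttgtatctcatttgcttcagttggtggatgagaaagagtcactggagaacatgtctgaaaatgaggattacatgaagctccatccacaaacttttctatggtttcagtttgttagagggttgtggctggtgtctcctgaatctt
Pycard overlaps the opposite-strand locus Gm45205, with 485 of its 3800 annotated exon bases (12.8%) inside exons of that locus, where position alone does not separate the reads. Aim2 overlaps Cadm3, a gene on the opposite strand, but shares 0 exon bases with it. The study's methods describe its quantification as strand-specific, but the strand setting of the counting was not given. Naip2 and Nlrc4 each contain a processed pseudogene on their own strand, also with 0 exon bases shared.

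Upstream sequence was examined for 8 of the 9 genes, all but Gsdmd, as 10 windows of 250 bases before a transcript start in RefSeq (GRCm38.p6), searched on both strands for short motifs. Nlrp3 and Casp4 had 2 windows each and the other 6 genes 1 each, and the Casp4 windows share 239 bases. The letters GGNNTTTCC, part of sites bound by NF-κB, were found in 2 of the 8 genes, Nlrp3 and Casp4. These are 4 of the 10 windows, against 4.93% of all 32851 windows, but the 2 Casp4 windows hold the same matches to these letters. The letters TTTCNNTTT, the core of interferon-stimulated response elements, were found in the same 2 genes, in 3 of the 10 windows against 9.37% of all windows. Here too a match, TTTCTATTT, is shared by both Casp4 windows. Counts that rest on 2 genes and overlapping windows do not show an enrichment. The letters GAGGAAGT, bound by the macrophage factor PU.1, were found in 2 windows, of Aim2 and Pycard, against 2.44% of all windows, and TTCNNNGAA, the element bound by STAT factors, was found in none of the 10, against 7.02%. Nlrp3 and Casp4 were also the pair that lay at least 1.5-fold higher in replicate 2, and a window of each is therefore shown, with the matches in capitals. The shown windows were thus picked by the outcome, and a link between these letters and the gap between replicates was not tested. In the Nlrp3 window (chr11:59541319-59541568, plus strand), which ends at the start of the gene, TTTCACTTT lies at 59541347 to 59541355 and GGAAAATCC, the motif on the other strand, at 59541447 to 59541455. In the Casp4 window (chr9:5308599-5308848, plus strand), between Casp1 and the first bases of Casp4, TTTCTATTT lies at 5308663 to 5308671, GGGATTTCC at 5308757 to 5308765, and GGAAATGCC at 5308835 to 5308843, inside the annotated first exon.
Nlrp3: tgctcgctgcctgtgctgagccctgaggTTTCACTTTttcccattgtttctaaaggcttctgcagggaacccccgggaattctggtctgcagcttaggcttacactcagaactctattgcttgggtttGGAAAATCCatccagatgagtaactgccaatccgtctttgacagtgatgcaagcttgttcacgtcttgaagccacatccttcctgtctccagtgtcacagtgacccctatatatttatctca
Casp4: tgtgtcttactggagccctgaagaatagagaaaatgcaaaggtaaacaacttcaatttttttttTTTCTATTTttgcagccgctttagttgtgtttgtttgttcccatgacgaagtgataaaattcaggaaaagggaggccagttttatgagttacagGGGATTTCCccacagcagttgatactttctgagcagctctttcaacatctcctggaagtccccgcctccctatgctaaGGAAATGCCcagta
The window of Aim2 lies within the annotated gene, far from its 5′ end. The Nlrp3 window that is not shown (59542436 to 59542685), which holds a match to GGNNTTTCC, also lies within the annotated gene. A match describes letters and is neither a binding site nor a cause, and binding was not measured.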

How the data were processed

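Poly-A RNA of 4 microglia cultures, 2 treated with EGCG and 2 with vehicle, was sequenced as paired reads of 150 bases. The authors filtered reads, aligned them with HISAT2 (version not given in the sources used here) to GRCm38.p6 and deposited raw counts per gene in 1 table per replicate, with gene lengths in bases. Columns were assigned to samples through the submission sheet among the study's supplements. Tables were joined on the Ensembl identifier (54532 genes, 22046 protein-coding). Loci assembled separately in each table (697 and 329, at most 0.156% of counts) were left out. Protein-coding genes whose counts over the 4 libraries summed to 10 or more were tested in R 4.3.3 with edgeR 4.0.16 (TMM, quasi-likelihood F test, treatment only) and, as an alternative, DESeq2 1.42.0, with Benjamini-Hochberg adjustment over all genes tested. Log2 CPM per library used a prior count of 2. Standard errors were taken as the absolute log2 fold change over the square root of F, and 95% intervals from the t distribution with the degrees of freedom of the fit. The smallest two-sided p of an exact permutation test with 2 against 2 libraries is 0.333, hence p-values rest on the model. The model sets the difference between treatments against a spread that is estimated from these cultures and moderated across genes.

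The 9 genes, the lists, tests and naming rule were chosen with earlier results of these data known. All 9 genes are named. Of each pathway list, the 2 genes with the highest mean RPKM, the 2 with the largest absolute log2 fold change among those with a mean of at least 1 CPM, every gene with an unadjusted p under 0.05 and every gene under 3 counts in all libraries are named, and Nek7, Ninj1, Il1b, Il18 and Il1rn always. For Nlrp3 and Casp1 the 3 genes of most similar pattern are named. A few genes that these rules name are not reported here. Alternatives covered the test, the replicate block, normalisation, low-count filter, gene classes and leaving out each library. Shared stretches were counted in GENCODE M21 transcripts, and promoter windows came from RefSeq.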

Additional observations from a re-analysis of the deposited data

How the results depend on the processing

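Across 13 alternatives, the 9 genes gave 117 fitted log2 fold changes, of which 102 kept the direction of the reported value and 15 did not. None had an unadjusted p under 0.05 under any alternative, the smallest being 0.276, and none had an adjusted p under 0.1. Apart from Gsdmd with total counts only (-0.017), every change of direction came from leaving out a library, after which 1 group holds a single replicate number and the lone library is assumed to vary like the others. Lowest and highest values over the 4 fits without a library were -0.40 and 0.39 for Nlrp3, -0.19 and 0.31 for Nlrc4, -0.14 and 0.21 for Aim2, -0.11 and 0.047 for Naip5, -0.38 and 0.38 for Pycard, -0.032 and 0.19 for Casp1, -0.54 and 0.44 for Casp4, and -0.059 and 0.084 for Gsdmd. Naip2 stayed below 0 throughout, from -0.17 to -0.02. The number of genes with both libraries of a replicate number above both of the other went from 0 of the 9 at 2-fold to 2 at 1.5-fold, and was 0 at 2-fold with total counts only.

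Over all genes, the 16 calls at an unadjusted p under 0.05 became 3 with at least 10 counts in every library, where fewer genes were tested, 35 with all biotypes, where more were, and between 8 and 131 without a library (16 without Vehicle replicate 1, 8 without EGCG replicate 1, 57 without Vehicle replicate 2 and 131 without EGCG replicate 2). The split of the 16 calls into 4 higher and 12 lower with EGCG also depended on the library left out. Higher genes prevailed without Vehicle replicate 1, and lower genes prevailed without any other library. Each of these fits leaves 1 library in a group. DESeq2 gave 1 gene at an adjusted p under 0.1, against 0. The cause of these shifts was not tested further. The replicate numbers are shared by only 2 pairs, with no source saying that a pair came from the same animals. Across 13811 genes, which are not independent replicates, the difference between replicates in vehicle correlated with that in EGCG at r = 0.641. With the replicate block, edgeR gave 444 genes at an unadjusted p under 0.05 (3.21%, 293 higher and 151 lower with EGCG) and 1 at an adjusted p under 0.1, and DESeq2 gave 153 (92 higher and 61 lower) and 7. No call among the 9 genes changed with the block, where edgeR gave log2 fold changes between -0.08 for Naip2 and 0.09 for Casp1. Their 95% intervals were narrower with the block, from -0.17 to 0.13 for Casp4 and from -0.11 to 0.28 for Nlrc4, the widest of the 9.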
